A study of Mus musculus with 10 samples.

Results

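The sites described here are distal LSD1 peaks of fed skeletal muscle at which a GR peak was listed in starved but not in fed muscle. They were chosen by 3 of the deposited peak lists. An LSD1 fed peak was taken when its midpoint lay outside every promoter (1000 bp upstream to 100 bp downstream of a RefSeq transcription start site, TSS), when it shared no base with a GR fed peak and when it shared at least 1 bp with a GR starved peak. This gave 1812 sites, 16.4% of the 11063 distal and 10.9% of all 16616 LSD1 fed peaks, and they are called GR-gained sites below. The name states list membership only, since a site can be absent from the GR fed list because its signal fell just short of the limit there. The other distal LSD1 fed peaks held GR in both conditions (GR-kept, 3832), in fed muscle only (GR-lost, 1017) or in neither (GR-never, 4402).

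Chromatin immunoprecipitation sequencing (ChIP-seq) was carried out on nuclei of limb skeletal muscle from C57BL/6J mice, labelled as 10 weeks old, which were either fed or starved for 24 h. Fed and starved muscle each gave 1 library for GR, for LSD1, for histone H3 mono- or dimethylated at lysine 9 (H3K9me1, H3K9me2) and for input chromatin, so there was no replicate error to hold a fed to starved difference against, and no p-value is given. No genetic change or drug is given by the labels for either group. The 2 GR libraries carried the same library code and the 2 LSD1 libraries another, whereas the fed and starved libraries of each histone mark carried different codes. For the marks, condition and code cannot thus be told apart. The paper's file names number every library separately, so a shared code does not show that fed and starved libraries were prepared together. With 1 library per group, a batch difference cannot be told apart from condition for GR and LSD1 either. Read numbers were not analysed here and the depth of each library is unknown. Muscle tissue also holds nuclei of other cells than myofibers, and fewer cells with a bound site cannot be told apart from less binding per cell.

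GR is a ligand-activated transcription factor of the nuclear receptor family. It is held in the cytoplasm until it binds glucocorticoids, the adrenal hormones that rise during fasting, and it then binds palindromic glucocorticoid response elements (GRE) in DNA or is recruited through other factors. In muscle it is known to switch on genes of protein breakdown and to restrain insulin and mTOR signalling. LSD1 is a flavin-dependent lysine demethylase. It removes methyl groups from lysine 4 of histone H3 when it acts as a corepressor, and from lysine 9 of H3 when it works with some nuclear receptors. H3K9me2 is a mark of inactive chromatin.

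Sequences of 8 sites are given first, because the motifs they carry recur in the comparisons that follow. All are 200 bp of RefSeq build GRCm38 (mm10) around the midpoint of the LSD1 fed peak. Capitals mark the GC box GGGCGG bound by factors of the SP family (Map3k6, Nos3), the AP-1 motif TGANTCA (1700104L18Rik, Uqcc1), the E-box CAGCTG of myogenic factors (Gm12724), the GRE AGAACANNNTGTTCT read with 2 mismatches (Gm10646, Accsl), and a lone GRE hexamer AGAACA (Foxo1). Capitals on the printed strand can show the reverse complement. Map3k6, Nos3 and Gm12724 were taken for their GR starved fold, Foxo1 from the gene lists, and Gm10646 and Accsl from the GRE-like sites. The choice among eligible sites, and the AP-1 examples, were made after the values were seen.
Map3k6 intron, chr4:133241648-133241847, + strand: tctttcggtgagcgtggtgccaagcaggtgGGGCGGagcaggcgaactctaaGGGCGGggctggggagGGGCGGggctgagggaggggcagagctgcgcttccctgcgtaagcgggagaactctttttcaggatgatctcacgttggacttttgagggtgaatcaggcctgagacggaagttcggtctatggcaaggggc
Nos3 exon, chr5:24383242-24383441, + strand: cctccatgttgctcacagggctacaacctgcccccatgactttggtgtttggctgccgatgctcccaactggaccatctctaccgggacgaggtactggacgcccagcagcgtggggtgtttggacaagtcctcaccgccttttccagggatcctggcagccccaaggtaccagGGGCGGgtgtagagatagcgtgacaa
1700104L18Rik intergenic, chr12:54252022-54252221, + strand: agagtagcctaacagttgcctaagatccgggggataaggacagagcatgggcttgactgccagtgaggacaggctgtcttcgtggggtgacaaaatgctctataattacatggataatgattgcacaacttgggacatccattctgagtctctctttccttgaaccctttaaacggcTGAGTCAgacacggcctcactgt
Uqcc1 intron, chr2:155885451-155885650, + strand: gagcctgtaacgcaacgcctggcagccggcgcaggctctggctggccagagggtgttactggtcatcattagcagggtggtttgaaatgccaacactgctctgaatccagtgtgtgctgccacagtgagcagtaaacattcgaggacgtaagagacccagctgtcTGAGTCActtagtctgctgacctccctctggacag
Gm12724 intergenic, chr4:106200322-106200521, + strand: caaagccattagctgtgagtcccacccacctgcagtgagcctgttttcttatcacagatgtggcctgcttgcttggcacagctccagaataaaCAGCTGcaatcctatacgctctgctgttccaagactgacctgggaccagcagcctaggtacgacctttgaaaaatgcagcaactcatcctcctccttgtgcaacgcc
Gm10646 intergenic, chr9:67114262-67114461, + strand: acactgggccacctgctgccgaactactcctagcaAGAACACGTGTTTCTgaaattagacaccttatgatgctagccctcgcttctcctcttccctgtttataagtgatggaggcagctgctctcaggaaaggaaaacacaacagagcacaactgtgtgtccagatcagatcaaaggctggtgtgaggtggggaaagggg
Accsl intron, chr2:93902652-93902851, + strand: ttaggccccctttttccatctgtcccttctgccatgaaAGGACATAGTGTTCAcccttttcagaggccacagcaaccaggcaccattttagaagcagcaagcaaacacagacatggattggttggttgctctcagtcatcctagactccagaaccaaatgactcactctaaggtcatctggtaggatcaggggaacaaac
Foxo1 upstream, chr3:52262610-52262809, + strand: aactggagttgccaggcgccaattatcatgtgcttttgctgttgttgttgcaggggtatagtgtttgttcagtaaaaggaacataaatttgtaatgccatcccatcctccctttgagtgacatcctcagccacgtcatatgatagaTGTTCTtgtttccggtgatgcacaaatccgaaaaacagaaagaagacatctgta

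The values that chose the sites are given as a description. Fold enrichment is the ratio of ChIP to input signal that the peak caller gave for a peak. LSD1 fed fold ranged from 1.53 to 11.1 with a median of 3.99, and the LSD1 peaks had a median length of 174 bp. GR starved fold ranged from 1.32 to 7.52 with a median of 2.77, against a median of 3.17 at GR-kept sites. Few sites were strongly enriched, as 14 had a GR starved fold of 5 or more. A q-value of 0.01 or less was listed for GR starved at 934 sites (51.5%), and for 79.5% of GR-kept sites. The rule took 29.2% of the 6214 distal LSD1 fed peaks without GR fed, and the GR starved list was longer than the GR fed list (37783 against 14108 peaks). When the GR starved list was cut to the length of the GR fed list by q-value, 1000 sites were left.

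Sites just inside and just outside the rule were few. The GR starved peak shared 10 bp or less with 28 GR-gained sites. Of the GR-never sites, 26 lay within 10 bp and 226 within 100 bp of a GR starved peak. A GR fed peak shared 10 bp or less with 22 GR-kept sites. At 869 GR-gained sites (48.0%) the whole LSD1 peak lay inside GR starved peaks.

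Absence of a GR fed peak at the LSD1 site was not the same as absence of GR fed nearby. At 256 sites (14.1%) the GR starved peak also overlapped a GR fed peak (shared at least 1 bp with it) elsewhere along its length, and at the other 1556 sites it overlapped none. The GR starved peaks of the first kind were longer, with a median of 952 bp against 385 bp. A GR fed peak lay within 100 bp of 96 sites, within 1 kb of 371 and within 10 kb of 970, and the median gap was 8342 bp.

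All 8 sites with the highest GR starved fold were of the first kind. The site in an intron of Map3k6, which encodes a kinase of stress signalling, at chr4:133241637-133241859 had an LSD1 fed fold of 3.93 and a GR starved fold of 7.52, and a GR fed peak of fold 6.83 ended 18 bp from it. The intergenic site nearest Gm12724 (chr4:106200315-106200528) had folds of 3.54 for LSD1 fed and 7.50 for GR starved, with GR fed at 7.98-fold 56 bp away. The site in an exon of Nos3, the endothelial nitric oxide synthase gene (chr5:24383268-24383415), had a GR starved fold of 7.41 and a GR fed peak of fold 10.9 overlapping the same GR starved peak. The GR fed peaks that overlapped these 8 GR starved peaks had folds between 4.86 (Lama2, a laminin chain of the muscle basement membrane) and 11.4 (Slc25a33, a mitochondrial nucleotide carrier) and lay 13 to 619 bp from the LSD1 peak. The remaining sites of the 8 lay near Btbd2 (6.81-fold GR starved), in an intron of Syn2, a synaptic vesicle protein gene (6.41), and in an intron of Med26, a subunit of the Mediator complex (6.38). None of the 8 shared a base with an LSD1 starved peak, and the site nearest Lama2 was the only one of them in another of the lists that the rule did not use (H3K9me2 fed).

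Where the GR starved peak overlapped no GR fed peak, the highest GR starved folds were lower. These sites were chosen after their values were seen. An intergenic site near 1700104L18Rik (chr12:54252070-54252173) had a GR starved fold of 5.45 and an LSD1 fed fold of 3.80. A site in an intron of Pde4d, which encodes a cyclic AMP phosphodiesterase, had a GR starved fold of 4.81, and that near Tmem196 had 5.38. An LSD1 starved peak covered these last 2 sites (3.18-fold and 5.12-fold) and none of the other 4 given here. A site in an intron of Uqcc1, an assembly factor of respiratory complex III, had a GR starved fold of 4.59. The sites near 2310069B03Rik and in an intron of Ush1c, the gene of harmonin, had GR starved folds of 4.53 and 4.30. An AP-1 motif was present in 4 of these 6 windows, those of 1700104L18Rik, Uqcc1, 2310069B03Rik and Ush1c. It was in 9.17% of all GR-gained, 8.44% of GR-kept and 7.34% of all distal LSD1 fed windows. A count among 6 sites picked by their fold gives no share for the class.

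**Figure D1:**
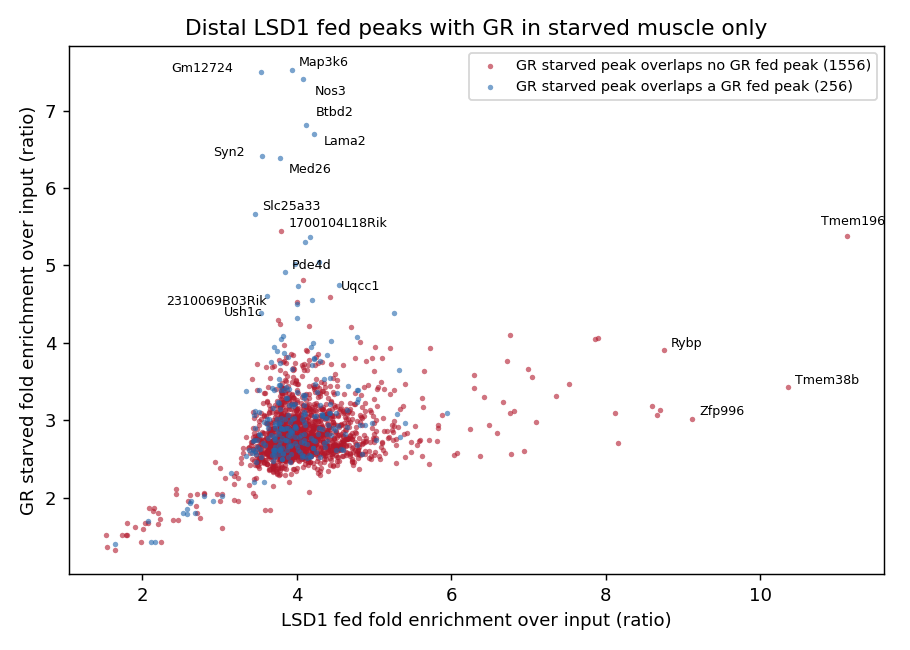
Each point is 1 of the 1812 GR-gained sites. The x axis gives the LSD1 fed and the y axis the GR starved fold enrichment over input, both ratios that chose the sites, and blue points are the 256 sites whose GR starved peak also overlapped a GR fed peak. Blue points fill the top of the plot up to 7.52 (Map3k6), and the 4 points farthest to the right are short LSD1 peaks led by Tmem196 at 11.1.

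The sites with the highest LSD1 fed folds differed from the rest in length and repeat content. The LSD1 fed fold was 11.1 near Tmem196, 10.4 in an exon of Tmem38b (a cation channel of the endoplasmic reticulum), 9.12 near Zfp996 and 8.75 near Rybp (a Polycomb protein). Those 4 LSD1 peaks were between 66 and 83 bp long, their windows were repeat-masked by 40 to 100%, and an LSD1 starved peak covered each of them. Of the 32 sites with an LSD1 fed fold of 6 or more, 24 were 100 bp or shorter and 22 had at least 50% of the window masked as repeat. At the other end, 45 sites had an LSD1 fed fold under 3, and 30 of these were in 3 or more of the 5 lists that the rule did not use. Over all GR-gained sites 60 were in 3 or more such lists and 1220 (67.3%) in none. The part of repeats in these values was not tested.

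The 5 lists not used by the rule were compared next, to describe LSD1 after starvation and H3K9 methylation at the GR-gained sites. Shares carry exact (Clopper-Pearson) 95% binomial intervals (CI) and differences carry Newcombe 95% intervals, both for counting error only, because neighbouring peaks are not independent and all peaks of a list come from 1 library. LSD1 starved shared a base with 376 of 1812 (20.8%, 95% CI 18.9 to 22.7) GR-gained sites, beside 17% of all distal LSD1 fed peaks and 2.70% of equally long sequence 5 kb away. The LSD1 starved list was long, with 66332 peaks against 16616 in the LSD1 fed list. The paper describes the opposite, a marked loss of LSD1 peaks after starvation. The LSD1 starved list used here is thus not the peak set that the paper describes. Each LSD1 starved share below holds for this longer list only, and shares in the paper's set were not tested. The share was higher than at GR-never sites (7.50%) by 13.3 percentage points (95% interval 11.3 to 15.3), and the difference had this direction on 20 of the 20 chromosomes 1 to 19 and X. It was lower than at GR-kept sites (26.8%), with a difference of -6.05 percentage points (95% interval -8.35 to -3.68), but this direction turned with the limit on q. With LSD1 starved peaks at a q-value of 0.01 or less, chosen for all classes after seeing the data, the share fell to 6.51% (all distal LSD1 fed peaks 4.57%). At that limit it was 5.22% at GR-kept, 7.87% at GR-lost and 2.45% at GR-never sites, with differences of 1.29 percentage points (95% interval 0.00528 to 2.69) from GR-kept and 4.06 percentage points (95% interval 2.90 to 5.36) from GR-never sites. Among LSD1 fed peaks of 150 to 300 bp, the shares were 20.0% at GR-gained and 19.5% at GR-kept sites and the interval of the difference included 0 (-2.98 to 4.12 percentage points), whereas that from GR-never sites remained at 11.8 percentage points (95% interval 8.65 to 15.1). At 326 of the 376 sites in both LSD1 lists the starved fold was below the fed fold, with medians of 3.45 and 4.01. That share (86.7%) was near those of the other classes, 92.9% at GR-kept, 84.8% at GR-lost and 85.2% at GR-never sites. Within 5 kb of a TSS the difference from GR-kept sites was -12.9 percentage points (95% interval -17.2 to -8.51), and farther away it was -4.72 percentage points (95% interval -7.43 to -1.87). The sites were selected in the fed list, and the depth of both libraries is unknown.

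H3K9me2 fed peaks shared a base with 285 of 1812 (15.7%, 95% CI 14.1 to 17.5) GR-gained sites, beside 11.6% of all distal LSD1 fed peaks. The share exceeded that of GR-never sites (8.50%) by 7.23 percentage points (95% interval 5.41 to 9.15) and that of GR-kept sites (12.3%) by 3.39 percentage points (95% interval 1.45 to 5.40). With all peaks taken, GR-lost sites had a similar share (14.9%), and the interval of that difference included 0 (-2.04 to 3.48 percentage points). The order of these 2 classes depended on the limit. Among LSD1 fed peaks of 150 to 300 bp the GR-gained share was 16.5% and the GR-lost share 11.7%. That difference was 4.78 percentage points (95% interval 0.553 to 8.72). With LSD1 fed peaks at a q-value of 0.01 or less the shares were 17.6% and 19.4%, and the interval included 0 (-6.23 to 2.56 percentage points). The difference from GR-kept sites was -0.503 percentage points (95% interval -4.18 to 3.28) within 5 kb of a TSS, 3.95 percentage points (95% interval 1.69 to 6.38) farther away and 2.19 percentage points (95% interval -0.186 to 4.78) in windows of 50 to 60% GC. With H3K9me2 fed peaks at a q-value of 0.01 or less the share fell to 5.08% (all distal LSD1 fed peaks 3.74%), above GR-kept (3.08%) and GR-never sites (2.86%) but below GR-lost sites (7.67%), the last by a difference of -2.59 percentage points (95% interval -4.61 to -0.742). Sites with an LSD1 starved peak held H3K9me2 fed more often (28.5%) than sites without one (12.4%), and sites in exons more often (24.9%) than sites in intergenic sequence (16.6%). The lists of the marks differed in length, with 171402 fed and 6624 starved peaks for H3K9me2 and 14178 fed and 38023 starved peaks for H3K9me1, so shares in a fed and a starved list do not measure a change. H3K9me1 starved covered 5.52% of the GR-gained sites (all distal LSD1 fed peaks 3.18%), H3K9me2 starved 2.48% (1.36%) and H3K9me1 fed 2.04% (2.22%). Restricted to chromosomes 1 to 19 and X and to windows under 50% repeat-masked, the H3K9me1 starved share was 2.97%, the H3K9me2 starved share 0.593% and the H3K9me2 fed share 13.9%. In that restricted set H3K9me2 fed exceeded GR-never sites by 6.55 percentage points (95% interval 4.76 to 8.45) and GR-kept sites by 1.95 percentage points (95% interval 0.0452 to 3.94). The GR-lost share there was 10.2%, and the difference from it was 3.69 percentage points (95% interval 1.07 to 6.17).

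**Figure D2:**
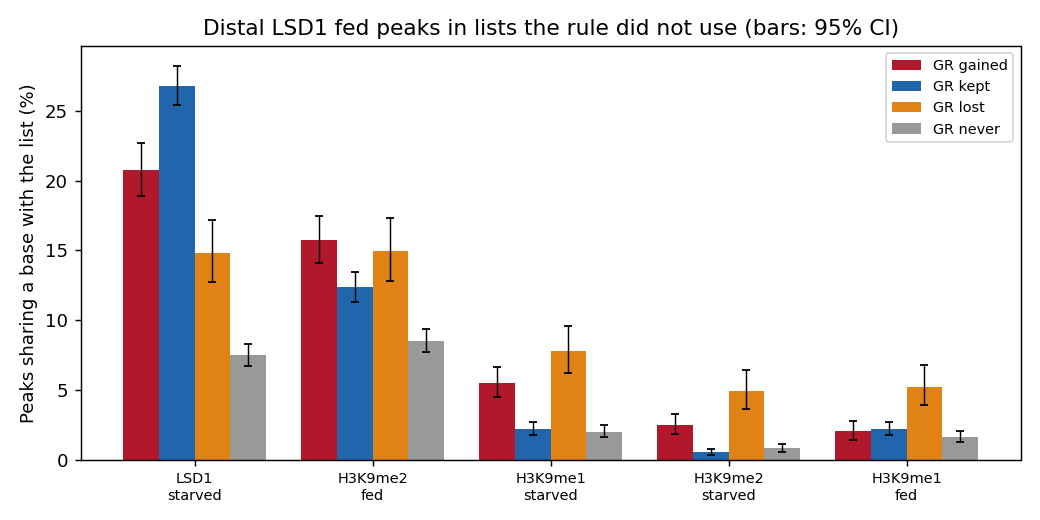
Bars give the percentage of distal LSD1 fed peaks of each GR class that shared at least 1 bp with each list on the x axis, and error bars are exact 95% binomial intervals for counting error. The GR-gained sites (red) lay between GR-kept and GR-never sites for LSD1 starved and above both for H3K9me2 fed, and GR-lost sites (orange) had the highest shares in the other 3 lists.

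The GR-gained sites lay closer to a TSS than the other distal LSD1 sites, although peaks with their midpoint in a promoter had been removed. Peaks could still reach into a promoter, and leaving out those with any base in one left 1600 sites. How much of the values below comes from such peaks was not tested. The median distance to the nearest TSS was 9.43 kb, against 17.0 kb at GR-kept, 20.0 kb at GR-lost and 15.0 kb at GR-never sites. A TSS lay within 5 kb of 39.3% of the sites, more than at GR-kept sites by 13.9 percentage points (95% interval 11.2 to 16.5) and more than at GR-never sites by 8.69 percentage points (95% interval 6.08 to 11.3). The 5 kb share was higher than at GR-kept sites on 20 of 20 chromosomes. Introns held 48.8%, intergenic sequence 34.5% and exons 16.6% of the sites. The exonic share exceeded that of GR-kept sites (9.47%) by 7.14 percentage points (95% interval 5.23 to 9.13). The intergenic share was near that of GR-never sites (34.4%). Another GR-gained site lay within 30 kb of 27.9% of the sites and a GR-kept site within 30 kb of 43.7%. The windows had a median GC content of 55.5% (54% at GR-kept, 52% at GR-lost and 50.5% at GR-never sites) and a median of 5 CpG per 200 bp, against 3 in GR-kept and GR-never windows.

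The promoters of the genes nearest to the sites were examined in the same lists. These GR values come from the libraries that chose the sites and are a description. The peaks that chose a site were not left out. Close to a TSS the same GR starved or LSD1 fed peak can thus be counted again in the promoter. How much of the shares below is such double counting was not tested. A GR starved peak lay in the promoter of the nearest gene for 61.3% of GR-gained sites and a GR fed peak for 31.1%, beside 28.9% and 16% of all 26180 genes. Other distal LSD1 sites were above all genes as well, with 57.5% and 40.8% for GR-kept and 45.5% and 29.4% for GR-never sites. GR starved without GR fed was found in the nearest promoter for 33.8% of the sites, beside 15.8% of all genes, and for 21.4% of GR-kept and 20.9% of GR-never sites. LSD1 fed occupied the nearest promoter for 52.6% of GR-gained and 52.3% of GR-kept sites, beside 25.4% of all genes.

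Sequence motifs were then counted on both strands of the 200 bp windows, of which 1811 GR-gained sites had one without gaps. The GRE of the form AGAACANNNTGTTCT with at most 1 mismatch was in none of them. A count of 0 allows a share of up to 0.203%, the upper limit of the 95% CI, beside 0.435% of all distal LSD1 fed windows. GR-kept sites held it at 0.967%, and the difference was -0.967 percentage points (95% interval -1.33 to -0.628). GR-never windows (0.137%) and windows 5 kb away (0.111%) also held it rarely, with intervals of the difference that included 0 (-0.298 to 0.0876 and -0.285 to 0.111 percentage points). With at most 2 mismatches it was in 0.773% of the GR-gained windows, and those sites are called GRE-like here. No share at that limit is given for the other classes or for windows 5 kb away. The GRE-like sites thus have no background to be set against, and the name states the letters only. The GRE-like sites of highest GR starved fold lay near Gm10646 (GR starved fold 3.52), near Zfp389 (3.47), in introns of Accsl (3.35) and Itpk1 (3.14), in an intron of Scn4a, the sodium channel of skeletal muscle (3.06), and in an intron of Bin1, a membrane-bending protein of T-tubules (2.90). The lone hexamer AGAACA, which is part of the GRE, was in 194 of 1811 (10.7%, 95% CI 9.32 to 12.2) windows, beside 15.5% of all distal LSD1 fed windows. Its share was below that of GR-kept windows (18.5%), with a difference of -7.82 percentage points (95% interval -9.67 to -5.90), and below that of windows 5 kb away (16.9%). The difference from GR-never windows (14.1%) was -3.34 percentage points (95% interval -5.05 to -1.53). In windows of 50 to 60% GC the interval of the latter included 0 (-4.14 to 1.29 percentage points). Absence of these letters from a window says nothing about binding of GR.

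The GC box GGGCGG was in 398 of 1811 (22.0%, 95% CI 20.1 to 24.0) GR-gained windows, beside 14.3% of all distal LSD1 fed windows and 4.54% of windows 5 kb away. GR-kept windows held it at 14.2% and GR-never windows at 11.7%, differences of 7.73 percentage points (95% interval 5.56 to 9.97) and 10.2 percentage points (95% interval 8.15 to 12.4). The share differed with the distance from a gene start, being 36.8% within 5 kb of a TSS, 14.4% at 5 to 30 kb and 9.45% beyond. The strata given here were chosen after the shares had been seen. At sites 5 kb or more from a TSS, GR-gained windows still exceeded GR-kept windows (8.66%) by 3.71 percentage points (95% interval 1.59 to 6.01). Among windows of 50 to 60% GC the shares were 10.3% and 7.50% and the difference was 2.80 percentage points (95% interval 0.613 to 5.21). GR-never windows of that GC content held it at 7.69%, and the difference from them shrank to 2.60 percentage points (95% interval 0.288 to 5.09). At 5 kb or more from a TSS the difference from GR-never windows was 6.86 percentage points (95% interval 4.84 to 9.07). The Map3k6 and Nos3 windows printed above carry 3 copies and 1 copy.

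The AP-1 motif TGANTCA, which is bound by FOS and JUN family factors, was in 166 of 1811 (9.17%, 95% CI 7.88 to 10.6) GR-gained windows, beside 7.34% of all distal LSD1 fed windows and 4.32% of windows 5 kb away. Its share exceeded that of GR-never windows (6.10%) by 3.06 percentage points (95% interval 1.61 to 4.63), whereas the interval of the difference from GR-kept windows (8.44%) included 0 (-0.827 to 2.37 percentage points). AP-1 went the other way from the GC box with distance: 4.21% within 5 kb of a TSS and 13.2% beyond 30 kb. At 5 kb or more the GR-gained share was 12.4% and the GR-kept share 9.29%, a difference of 3.08 percentage points (95% interval 0.945 to 5.39). Within 5 kb the GR-gained share was below the GR-kept share (5.95%) with a difference of -1.74 percentage points (95% interval -3.82 to 0.441), and the difference from GR-never windows was 0.424 percentage points (95% interval -1.28 to 2.38), both intervals including 0. Among windows of 50 to 60% GC the difference from GR-kept windows had an interval that included 0 (-0.414 to 4.29 percentage points). The GC box and AP-1 were found together in 19 windows.

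**Figure D3:**
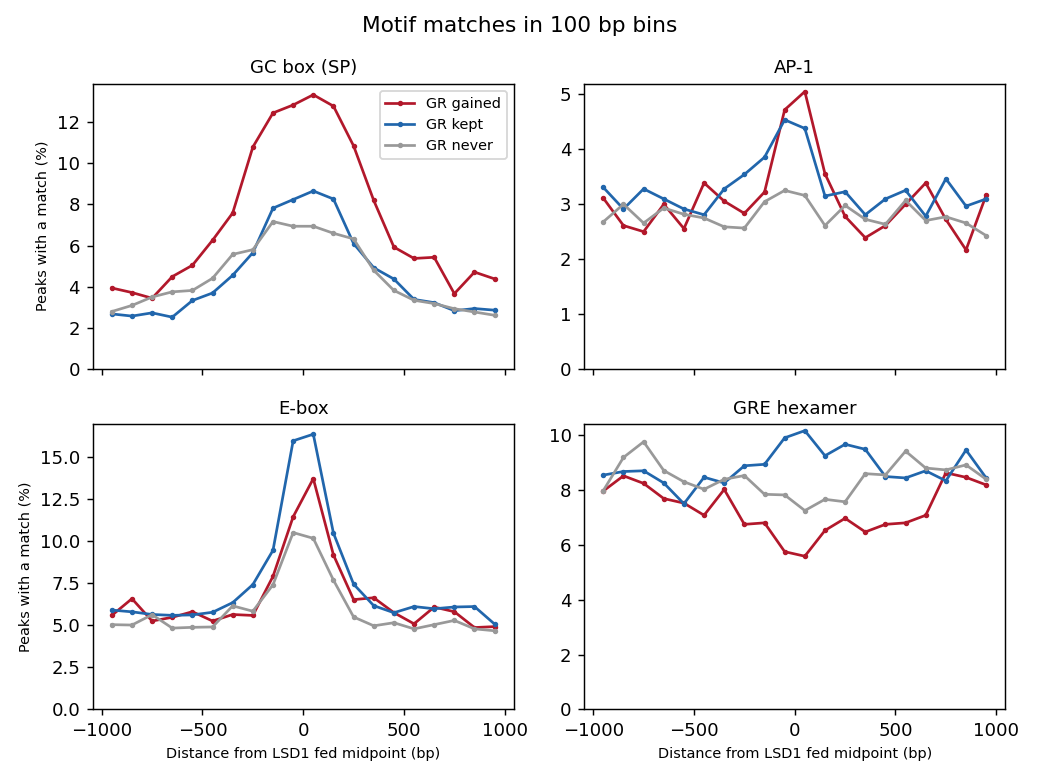
Lines give the percentage of sites with a match in each 100 bp bin, against the distance of the bin from the LSD1 fed midpoint, for GR-gained (red), GR-kept (blue) and GR-never (grey) sites. In the bin just right of the midpoint, GR-gained sites held the GC box at 13.3% and AP-1 at 5.04%, and their line for the GRE hexamer dipped to 5.59% while that of GR-kept sites stood at 10.2%.

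**Figure D4:**
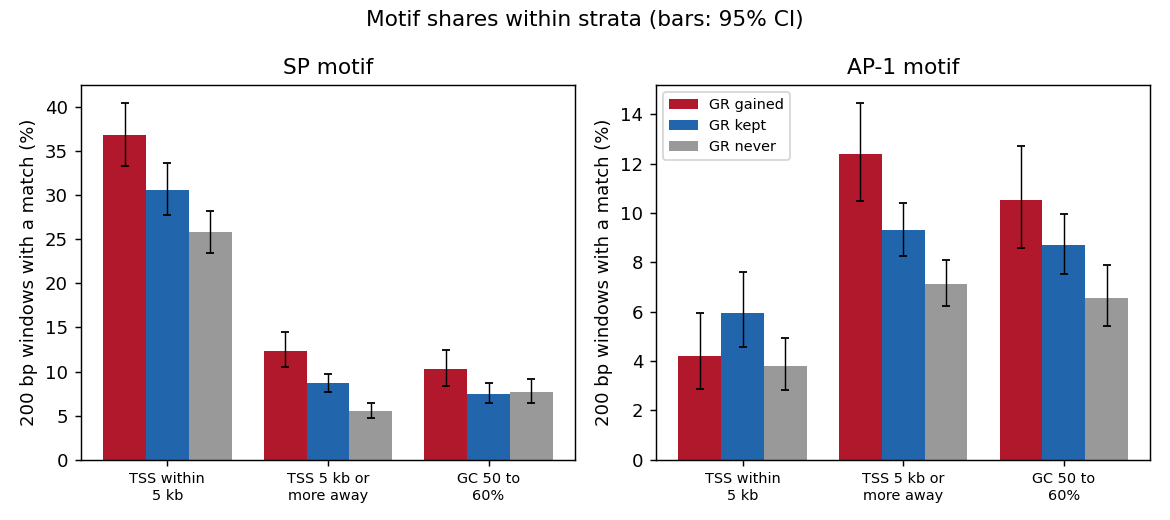
Bars give the percentage of 200 bp windows with a GC box (left, SP) or an AP-1 motif (right) by distance from a TSS and in windows of 50 to 60% GC, with exact 95% binomial intervals. GC box shares fall from 36.8% to 12.4% at GR-gained sites between the near and the far stratum, and AP-1 shares rise from 4.21% to 12.4%.

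Motifs of muscle regulators were less frequent at GR-gained than at GR-kept sites. The E-box CAGCTG was in 23.0% of GR-gained windows (all distal 23.6%), a difference of -5.81 percentage points (95% interval -8.19 to -3.37) from GR-kept and of 4.28 percentage points (95% interval 2.06 to 6.57) from GR-never windows. The latter interval included 0 in windows of 50 to 60% GC (-1.75 to 5.56 percentage points) and within 5 kb of a TSS (-0.677 to 6.18), whereas E-boxes were below GR-kept windows in all 3 strata. The motif of MEF2 factors, which drive muscle gene expression, was in 3.48% (all distal 5.04%), a difference of -2.46 percentage points (95% interval -3.55 to -1.27) from GR-kept windows. MEF3, TCAGGTTTC with at most 1 mismatch, a motif of muscle gene promoters, was in 6.41% (all distal 8.8%), a difference of -4.58 percentage points (95% interval -6.04 to -3.03) from GR-kept windows. For MEF2 and MEF3 the GR-gained shares differed from those 5 kb away (2.96% and 5.71%) by amounts whose intervals included 0. FOXO (TGTTTAC) was in 3.48% (all distal 2.91%) and exceeded GR-never windows by 1.27 percentage points (95% interval 0.379 to 2.30). The remaining motifs were in 11.7% for TEAD (GGAATG, all distal 12.4%), 7.01% for C/EBP (TTGCNNAA, 7.09%), 4.25% for estrogen-related receptors (AAGGTCA, 5.28%), 0.663% for ETS factors (CCGGAAGT, 0.408%), 0.221% for NRF1 (0.127%) and 0.0552% for NFI (0.0272%). The hexamer AGAACA is contained in the GRE, and the other motifs were counted without regard to overlap.

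The 1556 sites whose GR starved peak overlapped no GR fed peak were split into 4 groups of 389 by GR starved fold, after the data had been seen, and their motif content is given as a description. In the lowest group (fold 1.32 to 2.60) the GC box was in 27.8% (95% CI 23.4 to 32.5), AP-1 in 6.43% (4.20 to 9.34) and MEF2 in 2.06% (0.892 to 4.01). In the highest group (fold 2.99 to 5.45) the GC box was in 16.7% (13.1 to 20.8), AP-1 in 13.1% (9.92 to 16.9) and MEF2 in 6.68% (4.41 to 9.64). The E-box was in 18.3%, 21.6%, 26.5% and 27.0% from the lowest to the highest group, and the hexamer AGAACA in 8.74%, 9.51%, 12.1% and 13.4%. The highest group also lay farther from a TSS, with a median of 16.3 kb to the nearest against 8.07 kb in the lowest. Its median GC content was lower (54% against 57.5%). The part of distance and GC content in these shares was not tested.

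Genes near the sites were taken from 12 lists of muscle, glucocorticoid and control genes. A GR-gained site lay within 30 kb of a TSS of 2437 genes, 9.31% of all genes, and a GR-kept site near 13.2%. Of the 2437 genes, 909 (37.3%) also had a GR-kept site. The clock list had GR-gained sites at 10 of 19 genes, the sarcomere list at 18 of 48, the fuel use list at 11 of 34 and the GR target list at 8 of 32. The share of GR-kept sites was higher than that of GR-gained sites in each of these 4 lists, as the plot of gene lists shows. No GR-gained site lay near any of the 13 markers of satellite, endothelial, immune, stromal and nerve cells, and none of them had a GR-kept site. Of 8 myofiber markers 3 had a GR-gained site (Ckm, Tnnt3 and Myoz1) and 7 a GR-kept site. Of 20 genes silent in muscle 3 (15%) had a GR-gained site (Prm1, Prm2 and Cela1, the first 2 sharing a site), beside 9.31% of all genes. Gene length and gene density were not taken into account, and peaks near a gene do not measure its expression.

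**Figure D5:**
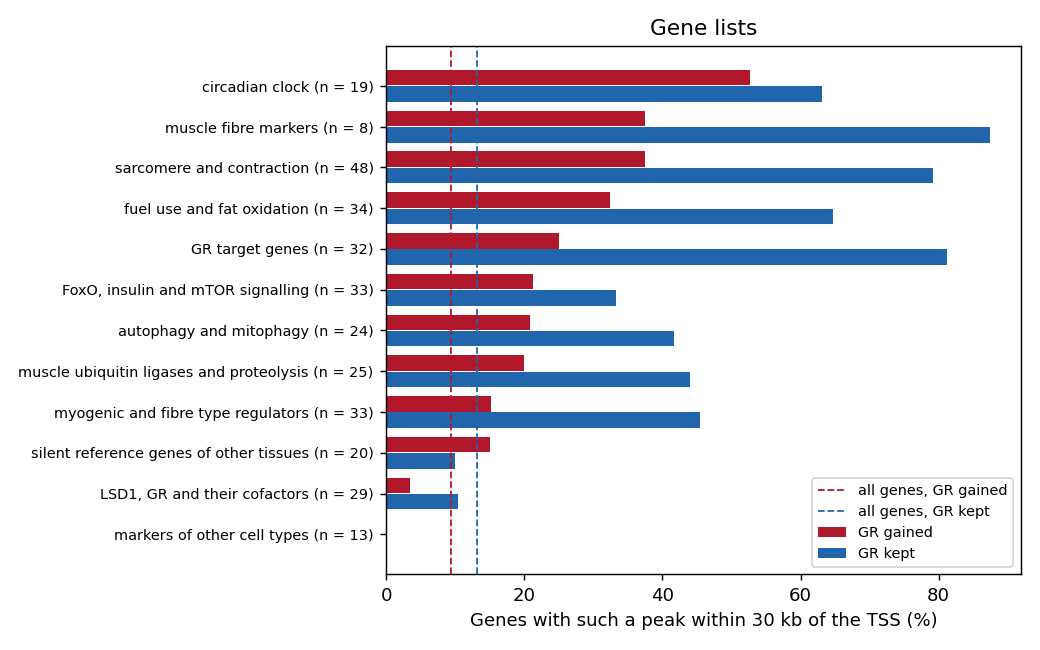
Bars give, for each gene list, the percentage of genes with a GR-gained (red) or GR-kept (blue) site within 30 kb of a TSS, and dashed lines give the same for all 26180 genes. GR-gained sites range from 0 in the markers of other cell types to 10 of 19 clock genes.

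Among known GR target genes, Ddit4, which encodes an inhibitor of mTORC1, had a site 27.1 kb upstream (chr10:59978811-59978939) with LSD1 fed 4.17-fold and GR starved 5.36-fold. Its GR starved peak also overlapped a GR fed peak of fold 6.72, which lay 220 bp from the LSD1 peak. Errfi1, a feedback inhibitor of the EGF receptor, had LSD1 fed 3.75-fold and GR starved 3.89-fold at chr4:150871427-150871503, 16.4 kb downstream, again with a GR fed peak (4.90-fold) overlapping the GR starved peak. Dusp1, a phosphatase of MAP kinases, had 3 sites, the strongest in one of its exons (chr17:26506095-26506289) with LSD1 fed 4.02-fold and GR starved 2.95-fold. Per1, a repressor of the clock, also had 3, the strongest 22.8 kb downstream in an exon of Hes7 (chr11:69122790-69123049) with LSD1 fed 3.61-fold and GR starved 2.71-fold. The sites of Rgcc (3.09-fold GR starved), Bcl6, a transcriptional repressor (2.61), Zbtb16, a zinc finger factor (2.59) and Nfkbia, the inhibitor of NF-kB (2.56) had no GR fed peak overlapping the GR starved peak. The GR starved q-values at Bcl6, Zbtb16 and Nfkbia were 0.0365, 0.0357 and 0.0677, and that at Rgcc was 0.000276. Of the 8 genes, 7 also had a GR-kept site within 30 kb, beside 37.3% of all genes with a GR-gained site.

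In the circadian list, Nfil3, a repressor of clock output, had an intronic site 482 bp downstream of its TSS (chr13:52980525-52980589) with LSD1 fed 4.24-fold and GR starved 3.14-fold. Nr1d1, which encodes the repressor REV-ERBalpha, had 2 sites, the stronger in an intron (chr11:98769938-98769992) with LSD1 fed 3.52-fold and GR starved 3.11-fold. An LSD1 starved peak of fold 3.43 covered it, and its GR starved peak also overlapped a GR fed peak (3.08-fold). Rora, the activator that competes with it, had LSD1 fed 3.75-fold and GR starved 3.01-fold. The E-box repressors Bhlhe40 (LSD1 fed 3.97-fold and GR starved 2.96-fold) and Bhlhe41 (LSD1 fed 3.84-fold and GR starved 2.85-fold) each had an intergenic site about the same distance downstream, at 10.5 and 10.4 kb. Dbp, a clock output activator, had 2 sites, the stronger with LSD1 fed 4.30-fold and GR starved 2.83-fold. Per3 and Cry2, repressors of the clock, had GR starved folds of 2.62 and 2.47, and the strongest sites of the 10 clock genes lay between 2.47 and 3.14, on both sides of the median of all GR-gained sites.

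In the sarcomere list, Ckm, the muscle creatine kinase gene, had 2 sites, the stronger 343 bp downstream of the TSS in an intron (chr7:19411371-19411503), with LSD1 fed 3.51-fold and GR starved 3.40-fold and a GR fed peak of fold 4.80 overlapping the GR starved peak. Des, the gene of the intermediate filament desmin, had LSD1 fed 4.52-fold and GR starved 3.36-fold at chr1:75344884-75344968, 15.4 kb upstream, also with an overlapping GR fed peak (4.56-fold). The junctophilin genes Jph1 and Jph2, which tie T-tubules to the sarcoplasmic reticulum, had GR starved folds of 2.96 and 2.85. The Z-disc genes Myoz1 and Myoz3 had 2.88 and 3.14, and the fast troponin T gene Tnnt3 had 2.90. The strongest sites of 10 further genes of the list had GR starved folds of 2.57 to 2.85. Of the 18 genes with a GR-gained site, 16 also had a GR-kept site, beside 37.3% of all genes with a GR-gained site.

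Genes of insulin and mTOR signalling had sites at 7 of 33 (21.2%), beside 9.31% of all genes and 15% of the genes silent in muscle. Insr, the insulin receptor gene, had LSD1 fed 4.28-fold and GR starved 2.99-fold in an exon 138 bp downstream of its TSS (chr8:3279281-3279676), and LSD1 starved at 3.50-fold. Akt1, a kinase below the receptor, had 3 sites and no GR-kept site within 30 kb, the strongest (chr12:112671113-112671239) with LSD1 fed 4.06-fold and GR starved 2.98-fold. Foxo1, an activator of atrophy genes, had LSD1 fed 4.26-fold and GR starved 2.66-fold (q-value 0.0430) at chr3:52262556-52262864, 5.63 kb upstream. Its window holds the hexamer printed above. Rptor, which encodes the scaffold of mTORC1, had LSD1 fed 4.12-fold and GR starved 3.34-fold in an intron. Eif4ebp1, a translation repressor, had a GR starved fold of 3.15. Sesn2 and Prkaa2, upstream inhibitors of mTORC1, had 2.58 and 2.50, with q-values of 0.0421 and 0.0297. Of the 7 genes, 2 (Rptor and Eif4ebp1) also had a GR-kept site within 30 kb, near the 37.3% of all genes with a GR-gained site.

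Proteolysis genes had sites at 5 of 25 (20%) and autophagy genes at 5 of 24 (20.8%). All genes were at 9.31% and the genes silent in muscle at 15%. The ubiquitin ligase genes Ubr2, Nedd4 and Fbxo31 had GR starved folds of 2.96, 2.69 and 2.55, with q-values of 0.00665, 0.0263 and 0.0710. LSD1 fed at Fbxo31 had a fold of 6.03. The GR starved peak at Ubr2 also overlapped a GR fed peak (4.00-fold). Capn3, the muscle calpain gene, had LSD1 fed 4.80-fold and GR starved 2.63-fold (q-value 0.0420) in an intron. Among autophagy genes, the highest GR starved fold was at a site 7.57 kb downstream of the TSS of Map1lc3a, an autophagosome marker, in an intron of Pigu (chr2:155283877-155283981), with LSD1 fed 3.95-fold and GR starved 3.68-fold. Tfeb, a master regulator of lysosome genes, had 2 sites (2.77-fold for the stronger, with an overlapping GR fed peak), and the sites of Ctsb (a lysosomal protease), Gabarap (an LC3 relative) and Pink1 (a mitophagy kinase) had 2.77, 2.62 and 2.55.

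In the fuel use list, Cpt1a, which encodes the gate of fatty acid entry into mitochondria, had LSD1 fed 4.10-fold and GR starved 2.98-fold in an intron (chr19:3333120-3333174), with an overlapping GR fed peak. Pnpla2, the main triglyceride lipase gene, had 3 sites, the strongest with LSD1 fed 4.25-fold and GR starved 2.91-fold and an LSD1 starved fold of 3.05. Mlycd, which removes malonyl-CoA, had LSD1 fed 4.26-fold and GR starved 2.90-fold and LSD1 starved at 3.25. Txnip, an inhibitor of glucose uptake, had 2 GR-gained and 9 GR-kept sites, with a GR starved fold of 2.87 at the stronger GR-gained one. Pygm (glycogen phosphorylase), Fabp3 (a fatty acid carrier) and Slc16a3 (a lactate transporter) had GR starved folds of 2.83, 2.67 and 2.59, with an overlapping GR fed peak at Pygm. Acadvl, an enzyme of fatty acid oxidation, shares its site with Gabarap, and the other 3 genes had 2.48 to 2.57.

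Myogenic regulators had sites at 5 of 33 genes (15.2%), beside 9.31% of all genes and 15% of the genes silent in muscle. Nfix, a factor of fetal muscle, had 3 sites, the strongest in an intron (chr8:84799444-84799649) with LSD1 fed 3.79-fold and GR starved 3.12-fold. Mef2d and Six5 each had 2, with GR starved folds of 2.67 and 2.72 at the stronger, and Sox6, a repressor of slow fiber genes, had 1 (2.60). Of 29 genes of LSD1, GR and their cofactors only Gse1, a subunit of LSD1 complexes, had GR-gained sites (3.45%, all genes 9.31%). Gse1 had 2, the stronger in an intron (chr8:120501081-120501178) with LSD1 fed 3.81-fold and GR starved 3.35-fold.

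Most of the 2437 genes had 1 site (2021 genes), and 4 had 5 or more. Erdr1 had 29 and its neighbour G530011O06Rik 17. Both are annotated on X and Y, where 12 sites on X and 21 on Y lay nearest to 1 of them. The 29 Erdr1 sites had GR starved folds from 1.72 to 3.24, and LSD1 starved covered 12 of them. The X and Y copies share sequence, so the counts of these genes are uncertain. Fam53b and Hspg2, which encodes the basement membrane proteoglycan perlecan, had 5 sites each, with GR starved folds up to 4.74 and 3.18. Scn4a, Irf2bp2, Cxxc5, Rny3 and the neighbours Ehbp1l1, Fam89b and Znrd2 had 4 each, the last 3 genes sharing the same sites (the tie at 4 is why 11 genes are given). The sites of Rny3, a small noncoding RNA gene, had low GR starved folds, from 1.79 to 2.05, and at 3 of its 4 sites the GR starved peak overlapped a GR fed peak.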

How the data were processed

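Per the labels and the study's methods, the authors aligned single-end ChIP-seq reads to mm10 with Bowtie, kept reads that mapped to 1 place only, removed reads in regions of a blacklist given as human, and called broad peaks per library with MACS2 against input. Sequence with several identical copies can thus be missing from the lists. bcl2fastq 2.20.0.422 is named in the submitters' processing notes. The 8 deposited lists gave per peak a score (not used here), a fold enrichment (a ratio) and -log10 of the p-value and q-value, all as the authors' peak caller gave them. The lists held q-values up to 0.0998, although the methods state a limit of 0.01. Sites were found by overlap of at least 1 bp. RefSeq annotation and sequence of GRCm38 were used (45756 curated transcripts, 26180 genes). Motif windows were 200 bp and flanks lay 5 kb away. Exact binomial and Newcombe intervals were computed with Python 3.11.15, numpy 2.4.6 and scipy 1.17.1, and the overlap and motif steps were tested on simulated data. Sites named were the 8 with the highest GR starved fold, the 4 with the highest LSD1 fed fold, the 6 GRE-like ones and, per listed gene, the site of highest GR starved fold within 30 kb, at most 8 genes per list, with the genes of most sites. Some listed genes that the rule takes in are not reported here by name. Additions chosen after their values were seen are marked as such. The sites, motifs and gene lists were chosen with earlier results of these data known. Because each group was a single library, conditions were not tested against each other.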

Additional observations from a re-analysis of the deposited data

How the results depend on the processing

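No paired analysis was possible because each group had 1 library. Over 8 results and 110 alternative values, 78 stayed within the range of the value reported and 32 moved. With GR starved peaks at q of 0.01 or less there were 934 sites, 1235 genes within 30 kb, a median GR starved fold of 3.02, and shares of 25.3% with LSD1 starved and 18.1% with H3K9me2 fed. With LSD1 fed peaks at q of 0.01 or less these were 738, 1125, 2.80, 27.1% and 17.6%, and 45.8% of sites lay in introns. With GR starved cut to the length of GR fed they were 1000, 1330, 2.99, 25.2% and 17.6%. A promoter reaching 1 kb downstream gave 1404 sites, 1586 genes, a median of 2.80, 17.9% with LSD1 starved and 14.0% with H3K9me2 fed. Leaving out peaks with any base in a promoter gave 18.2%, 14.1% and 51.5% in introns. An overlap of 50% of the shorter peak gave 17.2% for LSD1 starved and 11.6% for H3K9me2 fed, and other-list peaks at q of 0.01 or less gave 6.51% and 5.08%, and the order of GR-gained and GR-kept sites for LSD1 starved turned. Sites within 10 kb gave 1139 genes and the nearest TSS 1499. The GRE with at most 2 mismatches was in 0.773%, and MEF2 in 7.68% of 500 bp windows. In 2 alternatives chosen after seeing the data, the 1556 sites without a GR fed peak overlapping the GR starved peak kept every result within range, and chromosomes 1 to 19 and X with under 50% of repeat moved only H3K9me2 fed, to 13.9%. The strata by distance and GC content were chosen after seeing the data too. The unknown depth limits every absence from a list.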
